A study of Homo sapiens with 16 samples.

Results

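Topoisomerase genes and genes that repair DNA after a topoisomerase has become trapped on it were followed in U2OS cells, an established human osteosarcoma line, 6 h after adding T5, T4 or CPT. The 10 genes are TOP1, TOP1MT, TOP2A, TOP2B, TOP3A, TOP3B, TDP1, TDP2, XRCC1 and PARP1. They were picked by symbol, and all 10 were found among the 25270 genes of the deposited matrix. T5 and T4 are code names, and the series title calls its compounds APA modulators, where APA is read here as alternative polyadenylation, the use of more than 1 possible end for a transcript. No structure is given for either. CPT is read here as camptothecin, a topoisomerase I poison, although the labels do not spell the abbreviation out. Each compound was given at 0.5, 2, 5, 10 and 20 µM, the control was DMSO, the solvent, and each of these 16 conditions was measured in 1 RNA-seq library of the same line after the same 6 h.

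DNA topoisomerases relieve the twisting that builds up when the double helix is copied or transcribed. Type IB enzymes (TOP1 in the nucleus, TOP1MT in mitochondria) nick a single strand, type II enzymes (TOP2A, TOP2B) pass a duplex through a break in both strands, and type IA enzymes (TOP3A, TOP3B) pass single strands. Each forms a passing covalent bond with DNA, and camptothecin holds TOP1 in that state. TDP1 cleaves the bond left by TOP1 and TDP2 that left by TOP2, PARP1 senses the break, and XRCC1 is the scaffold that gathers the single-strand repair enzymes.

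Values are the FPKM that the authors deposited, a fragment count made comparable between transcripts of unequal length and between libraries of unequal size. FPKM summed to between 238669 and 285143 per library, and the steps between low values put the treated libraries at a relative depth of 0.639 to 0.997, with DMSO as 1. Total depth is unknown. No condition has a replicate, so tests were made on trends over dose and on differences over the 5 matched doses, with limma across the 10600 genes whose mean FPKM was at least 1. All 10 genes passed that filter. Changes are on the log2(FPKM + 1) scale, with a standard error behind the ± sign. A gene is called when its Benjamini-Hochberg adjusted p over all genes tested is under 0.05. The labels do not mention separate cultures, and the spread behind each p-value may be technical. In a trend that spread also holds any departure from a straight line over log dose. In a matched comparison it holds any change of the difference with dose. A gene that is level from a low dose can thus go uncalled despite a large change. Of 8 osteoblast lineage markers, COL1A1 and SPARC had 300.6 and 226.9 in DMSO, RUNX2, ALPL and SPP1 had 1.71 to 2.86, and the other 3 (COL1A2, BGLAP and TWIST1) were under 1 in every library, with TWIST1 listed at 0. The summed FPKM of 5 blood cell markers was at most 1.89 in any library, mostly from CD14, at 1.81 with 20 µM CPT and 0.0114 in DMSO. That of 4 epithelial markers was 2.34 in DMSO and 2.31 to 4.52 in treated libraries. Of these, EPCAM had 1.53 and KRT14 0.496 in DMSO, so EPCAM was near the level of SPP1.

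TOP2A was the most abundant of the 10 transcripts in DMSO, at an FPKM of 79.5, and ranked 508 of the 10600 genes tested. PARP1 followed at 63.7, TOP1 at 31.0, TOP2B at 29.5 and TOP1MT at 23.3. TDP2 and XRCC1 were close together at 13.0 and 12.3. TOP3A at 8.21, TOP3B at 5.83 and TDP1 at 4.93 were the scarcest. With 1 DMSO library, whether neighbours in this order differ beyond their spread cannot be judged.

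The 10 genes separated into patterns. TOP3A and TDP1 were below DMSO at every dose of all 3 compounds. TOP3B was below DMSO at all 5 doses of T5 and of T4 and above it at all 5 doses of CPT. TOP1 was higher with T5 and with T4 than with CPT at every dose, and PARP1 stayed within a narrow range. The share of all genes tested with each of these patterns was not counted. Each of the 3 compounds is compared with the same DMSO library. In such bulk RNA, fewer cells of a kind and less RNA per cell cannot be told apart.

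**Figure D1:**
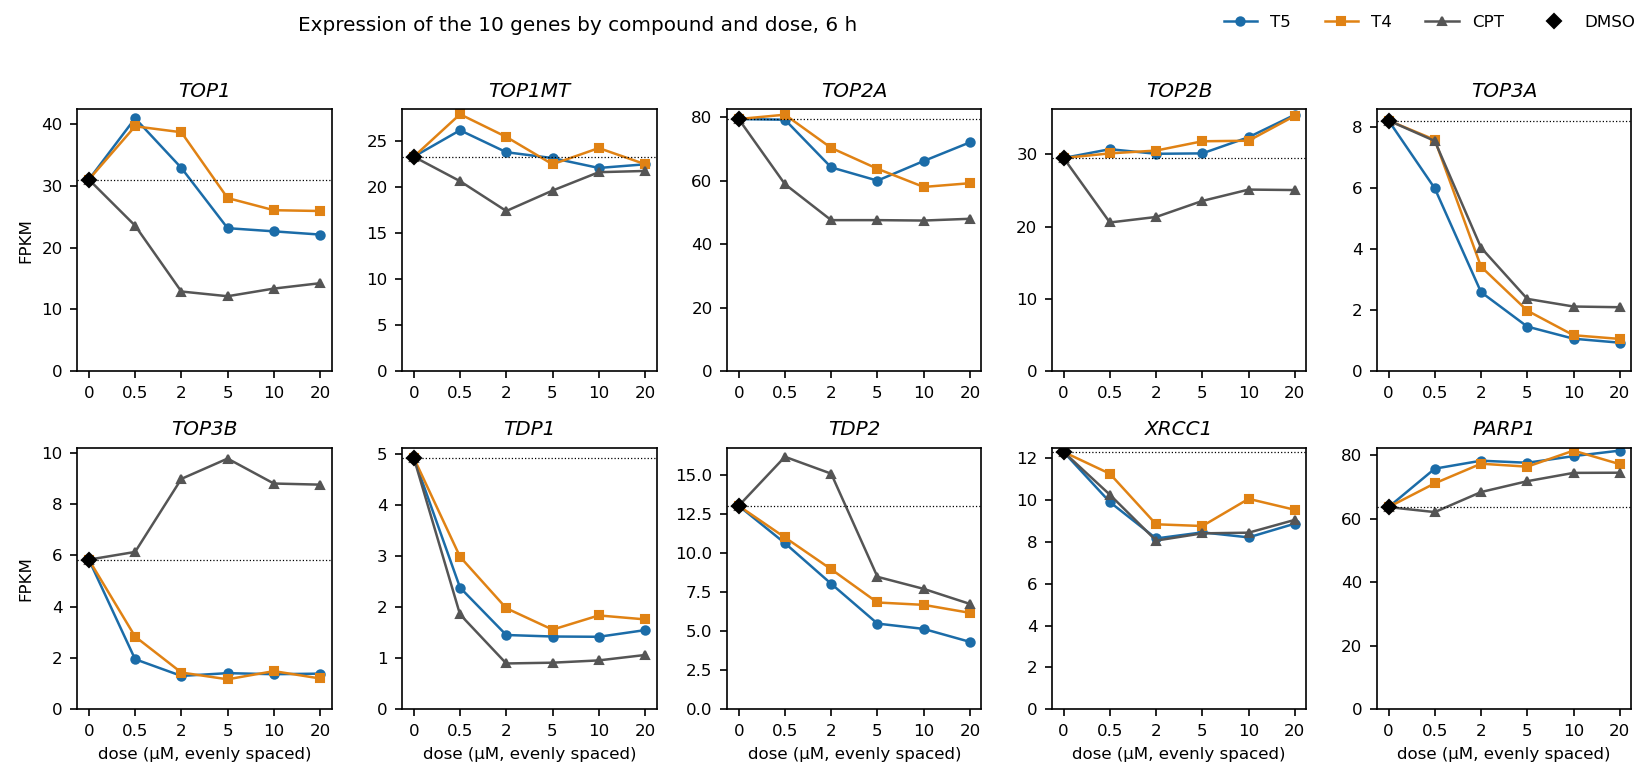
FPKM (y axis, from 0) of each of the 10 genes by dose in µM (x axis, evenly spaced steps, with DMSO at 0) for T5, T4 and CPT; each point is 1 library and the dotted line is the DMSO value. TOP3A ends at 0.926 with T5, 1.05 with T4 and 2.09 with CPT, against 8.21 in DMSO, and TOP3B lies at 1.16 to 2.83 with T5 and T4, apart from 6.14 to 9.78 with CPT.

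With dose, 0 of the 10 genes rose and 4 fell with T5 (TOP1, TOP3A, TDP1 and TDP2), against 18.2% of all tested genes rising and 34.5% falling. With T4, 0 rose and 5 fell (TOP2A, TOP3A, TOP3B, TDP1 and TDP2), against 14.5% rising and 32.4% falling. With CPT, 0 rose and 4 fell (TOP1, TOP2A, TOP3A and TDP2), against 17.9% rising and 25.8% falling. Without the 10 µM CPT library 0 of the 10 were called with CPT, and over all 10600 genes 1 rose and 0 fell; without 0.5 µM or 5 µM 1 of the 10 was called, and on the treated libraries alone 2. At an unadjusted p under 0.05 in limma, 1 rose with T5 and 1 with T4 (PARP1 in both) and 2 with CPT (PARP1 and TOP3B). The share of all genes past this unadjusted limit was not counted, so these counts cannot be set against it. The median change of the 10 was -0.59 with T5, -0.50 with T4 and -0.52 with CPT, beside -0.29, -0.27 and -0.14 over all genes tested. Centring each library on its median adds 0.67, 0.65 and 0.45 to every change with T5, T4 and CPT. The median of the 10 then is 0.09, 0.14 and -0.07, beside 0.38, 0.38 and 0.31 over all genes tested. Centring also changed the split of calls, to 4 rising and 2 falling with T5, 3 rising and 1 falling with T4, and 2 rising and 1 falling with CPT. Of the 10600 genes, centring called 4388 rising and 1992 falling with T5, 4293 and 1847 with T4, and 3572 and 1643 with CPT. At 20 µM, 4 of the 10 genes with T5, 3 with T4 and 3 with CPT lay at least 2-fold below DMSO on the same scale, against 26.5%, 22.9% and 21.0% of all genes, and 0 lay 2-fold above, against 2.44%, 1.2% and 6.12%. These single-dose ratios have no replicate and no test.

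The windows before the start of 4 of these genes are printed here because TOP1, TOP2A, TOP3A and TOP3B show different dose patterns described next. Each is the 250 bases upstream of the RefSeq start on GRCh38.p14, and 9 of the 10 genes had such a sequence. Capitals mark matches on either strand to the motif CCAAT, the motif GGGCGG, the motif TTTGAA and the motif TATAAA.
TOP1, chr20:41028572-41028821, plus strand: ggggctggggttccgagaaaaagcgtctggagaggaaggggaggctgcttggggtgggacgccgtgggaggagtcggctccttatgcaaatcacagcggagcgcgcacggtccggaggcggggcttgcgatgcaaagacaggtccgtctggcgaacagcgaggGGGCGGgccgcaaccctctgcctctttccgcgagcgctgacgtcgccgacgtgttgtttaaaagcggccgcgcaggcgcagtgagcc
TOP2A, chr17:40417897-40418146, minus strand: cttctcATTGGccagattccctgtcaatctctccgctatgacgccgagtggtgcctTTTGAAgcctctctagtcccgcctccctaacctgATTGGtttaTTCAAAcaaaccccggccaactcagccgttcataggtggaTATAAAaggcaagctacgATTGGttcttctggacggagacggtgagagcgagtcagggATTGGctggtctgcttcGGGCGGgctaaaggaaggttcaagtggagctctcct
TOP3A, chr17:18314995-18315244, minus strand: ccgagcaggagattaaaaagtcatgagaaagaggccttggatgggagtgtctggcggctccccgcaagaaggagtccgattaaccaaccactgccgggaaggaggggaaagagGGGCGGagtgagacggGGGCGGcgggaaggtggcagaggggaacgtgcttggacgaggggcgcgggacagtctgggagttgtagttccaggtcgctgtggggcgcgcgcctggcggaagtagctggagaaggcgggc
TOP3B, chr22:21982788-21983037, minus strand: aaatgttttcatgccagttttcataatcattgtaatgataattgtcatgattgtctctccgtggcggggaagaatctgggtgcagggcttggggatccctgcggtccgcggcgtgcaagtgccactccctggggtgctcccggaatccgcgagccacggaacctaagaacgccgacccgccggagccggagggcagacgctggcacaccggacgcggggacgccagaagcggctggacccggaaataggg

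Before TOP2A the motif CCAAT occurred 4 times, always as its reverse complement, the motif TTTGAA occurred 2 times counting both strands, and the other motifs occurred once each. Of 35116 such windows of all genes, 32.0% held CCAAT, 0.874% held it at least 4 times, 13.3% held TTTGAA, 10.7% held TATAAA and 42.6% held GGGCGG. The last of these occurred once before TOP1 and 2 times before TOP3A, and none of the motifs occurred before TOP3B. No printed matches overlapped each other, and a match is a description, not a binding site.

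TOP1, the nuclear enzyme that camptothecin traps, was below DMSO with CPT and above it with low T5 and T4. It had an FPKM of 41.0, 32.9, 23.2, 22.6 and 22.1 at rising doses of T5, and of 39.7, 38.7, 28.0, 26.1 and 25.9 at rising doses of T4. With CPT it had 23.6, 12.9, 12.1, 13.4 and 14.2, and DMSO had 31.0. So the lowest dose stood 32.0% above DMSO with T5 and 27.8% above it with T4, while 5 µM CPT stood at 39.0% of DMSO. From 2 µM CPT upwards the values were nearly level and below every T5 and T4 library.

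The fitted change of TOP1 between 0 and 20 µM was -0.76 ± 0.23 with T5 (adjusted p = 0.0298, limma), -0.49 ± 0.22 with T4 (adjusted p = 0.107) and -1.13 ± 0.34 with CPT (adjusted p = 0.0384). With T5 the call was lost with median centring (adjusted p = 0.775) and without 0.5, 5, 10 or 20 µM (0.0515 to 0.0858). With CPT it was lost with median centring (0.0922), with quantile normalization (0.0597) and without 0.5, 5 or 10 µM (0.0664 to 0.101). Both calls were also lost without the filter on low values (0.0725 with T5 and 0.0806 with CPT) and on a linear dose scale (0.113 and 0.409). Median centring turned the T4 change to 0.16 (adjusted p = 0.556). On the treated libraries alone the T4 change was -0.87 (adjusted p = 0.0127) and the CPT change -0.73 (adjusted p = 0.186). Averaged over matched doses, TOP1 was higher with T4 than with CPT by 1.03 ± 0.12 (adjusted p = 0.000762, limma) and higher with T5 than with CPT by 0.85 ± 0.10 (adjusted p = 0.000711), in 5 of 5 doses each. With median centring all 5 doses of T5 and of T4 lay above DMSO, and all 5 doses of CPT below. The 5 tested genes whose log2 values were most like those of TOP1 over the 16 libraries were CELF1, RANBP9, IGF1R, SNX9 and FERMT2, with a Pearson r of 0.992 to 0.994. These libraries share 3 compounds and a control, so r is a description.

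TOP1MT relaxes the mitochondrial genome. Its FPKM was 22.1 to 26.2 with T5, 22.5 to 28.0 with T4, 17.4 to 21.8 with CPT and 23.3 in DMSO. No trend was called (-0.14 ± 0.11, -0.15 ± 0.14 and -0.03 ± 0.18 with T5, T4 and CPT), but median centring turned the T5 and T4 changes to 0.53 and 0.50, both called (adjusted p = 0.0228 and 0.0245, limma). It was higher with T4 than with CPT by 0.27 ± 0.09 (adjusted p = 0.0296, limma) and higher with T5 than with CPT by 0.21 ± 0.08 (adjusted p = 0.0454), in 5 of 5 doses each. The T5 call was lost without dose as a block (adjusted p = 0.0791), and both calls were lost when 0.5 µM, 2 µM or 5 µM was left out, with adjusted p of 0.0623 to 0.125, and the T4 call also without 10 µM (0.0552). The T5 call was lost too without the filter on low values (0.0672) and without the mean-variance trend of limma (0.0549). The ratio of TOP1 to TOP1MT within a library was 0.983 at 20 µM T5, 1.15 at 20 µM T4, 0.653 at 20 µM CPT and 1.33 in DMSO. A single factor per library leaves this ratio unchanged, whereas quantile normalization can change it.

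TOP2A, the type II enzyme of dividing cells, was lowest with CPT. Its FPKM was 79.3, 64.2, 60.0, 66.2 and 72.1 at rising doses of T5, and 80.8, 70.4, 63.8, 58.1 and 59.2 at rising doses of T4. With CPT it was 58.9, 47.6, 47.6, 47.5 and 48.0, against 79.5 in DMSO. The values with T5 had their lowest point at 5 µM, whereas those with CPT were level from 2 µM. TOP2A fell with T4 (change -0.52 ± 0.10, adjusted p = 0.00675, limma) and with CPT (change -0.65 ± 0.20, adjusted p = 0.0387), and its change with T5 was -0.24 ± 0.16 (adjusted p = 0.247). Median centring turned the T5 and T4 changes to 0.43 (adjusted p = 0.0252) and 0.13 (adjusted p = 0.365), and left the CPT change at -0.20 (adjusted p = 0.414). Quantile normalization called the T5 change at -0.60 (adjusted p = 0.0384). The CPT call was also lost without DMSO, 0.5 µM, 5 µM or 10 µM (adjusted p of 0.0738 to 0.158). It was lost as well without the filter on low values (0.0752), without the mean-variance trend of limma (0.05255) and on a linear dose scale (0.391). The T4 call was lost on a linear dose scale (0.0932).

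At matched doses TOP2A was higher with T4 than with CPT by 0.40 ± 0.05 (adjusted p = 0.00117, limma) and higher with T5 than with CPT by 0.45 ± 0.05 (adjusted p = 0.000481), in 5 of 5 doses each. Genes of the G2 and M phases were set beside TOP2A. Of 12, 11 fell with T5, 10 with T4 and 10 with CPT, against 34.5%, 32.4% and 25.8% of all genes. In this list 0 rose, against 18.2%, 14.5% and 17.9% of all genes. The list medians were -2.46, -1.64 and -2.11. These medians stayed below 0 with median centring and with quantile normalization. AURKA, a mitotic kinase, was at 0.549 with 20 µM T5, 1.81 with 20 µM T4, 4.41 with 20 µM CPT and 40.5 in DMSO, and KIF11, a spindle motor, at 2.59 with 20 µM T5, 5.03 with 20 µM T4, 2.004 with 20 µM CPT and 27.9 in DMSO. CCNA2, cyclin A2, changed by -3.16 ± 0.15, -2.55 ± 0.23 and -2.14 ± 0.31 with T5, T4 and CPT, and BUB1B, a spindle checkpoint kinase, by -2.52 ± 0.29, -2.14 ± 0.25 and -2.67 ± 0.76 with T5, T4 and CPT. The summed FPKM of the 12 was 197.1 to 508.6 with T5, 237.8 to 540.0 with T4, 219.6 to 352.1 with CPT and 542.1 in DMSO, and the part of cell cycle position in the TOP2A values was not tested. RTCA, CEP89, NOTCH2, ATF2 and CUL5 were the tested genes most like TOP2A over 16 libraries, with r of 0.955 to 0.973, and none of them belongs to that G2 and M list.

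TOP2B, the type II enzyme that non-dividing cells also use, separated the compounds. FPKM was 30.7, 30.1, 30.1, 32.4 and 35.5 at rising doses of T5 and 30.1, 30.5, 31.8, 31.9 and 35.3 at rising doses of T4. It was 20.6, 21.3, 23.6, 25.1 and 25.1 at rising doses of CPT, against 29.5 in DMSO. No CPT library reached the lowest T5 or T4 library, and every CPT library lay below DMSO, although with median centring 3 of 5 CPT doses lay above it. None of its trends was called (0.20 ± 0.10, 0.22 ± 0.10 and -0.03 ± 0.21 with T5, T4 and CPT), and with median centring the T5 and T4 changes were called at 0.88 and 0.86 (adjusted p = 0.00127 and 0.00158, limma). TOP2B was higher with T4 than with CPT by 0.45 ± 0.05 (adjusted p = 0.000824, limma) and higher with T5 than with CPT by 0.44 ± 0.05 (adjusted p = 0.000703), in 5 of 5 doses each. The ratio of TOP2A to TOP2B within a library was 2.03 at 20 µM T5, 1.68 at 20 µM T4, 1.92 at 20 µM CPT and 2.69 in DMSO.

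TOP3A is the type IA enzyme that works with the BLM helicase on joined DNA strands and also acts in mitochondria. It had the largest fitted fall of the 10 in each trend. With CPT, however, TDP1 stood at a lower percent of DMSO than TOP3A at each dose. The values were 18.2% against 49.2% at 2 µM and 21.5% against 25.4% at 20 µM. FPKM of TOP3A was 5.98, 2.58, 1.45, 1.06 and 0.926 at rising doses of T5 and 7.57, 3.42, 1.98, 1.17 and 1.05 at rising doses of T4. With CPT it was 7.54, 4.04, 2.36, 2.11 and 2.09, against 8.21 in DMSO. Each step up in dose brought a lower value with every compound. At 20 µM it stood at 11.3% of DMSO with T5, 12.8% with T4 and 25.4% with CPT. It fell with all 3 compounds (changes of -2.44 ± 0.27 with T5, -2.46 ± 0.25 with T4 and -1.83 ± 0.27 with CPT, adjusted p = 0.00137, 0.00126 and 0.0105, limma), and stayed called with median centring and quantile normalization. On a linear dose scale none of the 3 trends was called (adjusted p = 0.0922, 0.0585 and 0.320), nor was that of CPT without 10 µM (adjusted p = 0.0537).

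At matched doses TOP3A was lower with T5 than with CPT (difference -0.50 ± 0.08, adjusted p = 0.0021, limma; lower in 5 of 5 doses), but not without dose as a block (adjusted p = 0.361). Its difference between T4 and CPT was -0.29 ± 0.11 (adjusted p = 0.0512; lower in 4 of 5 doses). The tested genes most like TOP3A were KANSL3, ZNF45, TTI1, ZBED5 and GOLPH3, with r of 0.989 to 0.995 over 16 libraries. This search and that for TOP3B were added after the values were seen.

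TOP3B, the type IA enzyme that also acts on RNA with its partner TDRD3, had the largest difference between compounds of the 10. FPKM was 1.95, 1.29, 1.40, 1.36 and 1.38 at rising doses of T5 and 2.83, 1.43, 1.16, 1.48 and 1.19 at rising doses of T4. With CPT it was 6.14, 8.99, 9.78, 8.81 and 8.76, against 5.83 in DMSO. All T5 and T4 libraries lay below DMSO and all CPT libraries above it, and T5 and T4 had already reached 33.4% and 48.5% of DMSO at 0.5 µM. At 5 µM CPT it stood at 168% of DMSO. These directions against DMSO held with median centring and quantile normalization.

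With T5 and T4, TOP3B was near its lowest values by 2 µM. It fell with T4 (change -1.47 ± 0.37, adjusted p = 0.0178, limma), a call lost with median centring (adjusted p = 0.0759), with quantile normalization (0.0868) and on the treated libraries alone (0.071). That call was also lost without the filter on low values (0.0572) and on a linear dose scale (0.222). The changes with T5, -1.21 ± 0.44, and with CPT, 0.59 ± 0.22, were not called (adjusted p = 0.0587 and 0.0721), and median centring and quantile normalization called that of CPT at 1.04 and 1.10 (adjusted p = 0.016 and 0.0266). Without 2 µM the T5 change was called (adjusted p = 0.0469). Over matched doses TOP3B was lower with T4 than with CPT (difference -1.88 ± 0.21, adjusted p = 0.000666, limma) and lower with T5 than with CPT (difference -1.93 ± 0.14, adjusted p = 0.000192), in 5 of 5 doses each and under every alternative run. The ratio of TOP3A to TOP3B was 3.07 at 0.5 µM T5, 2.68 at 0.5 µM T4, 1.23 at 0.5 µM CPT and 1.41 in DMSO. At 20 µM it was 0.669 with T5, 0.879 with T4 and 0.238 with CPT. A processed pseudogene copy, TOP3BP1, is annotated in GENCODE, so its reads could be shared with TOP3B. NDOR1, ZNF623, RGS19, CDC42EP1 and TBL2 were most like TOP3B, with r of 0.988 to 0.996 over 16 libraries, and CDC42EP1 was at 6.18 with 20 µM T5, 5.85 with 20 µM T4, 51.8 with 20 µM CPT and 27.2 in DMSO.

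**Figure D2:**
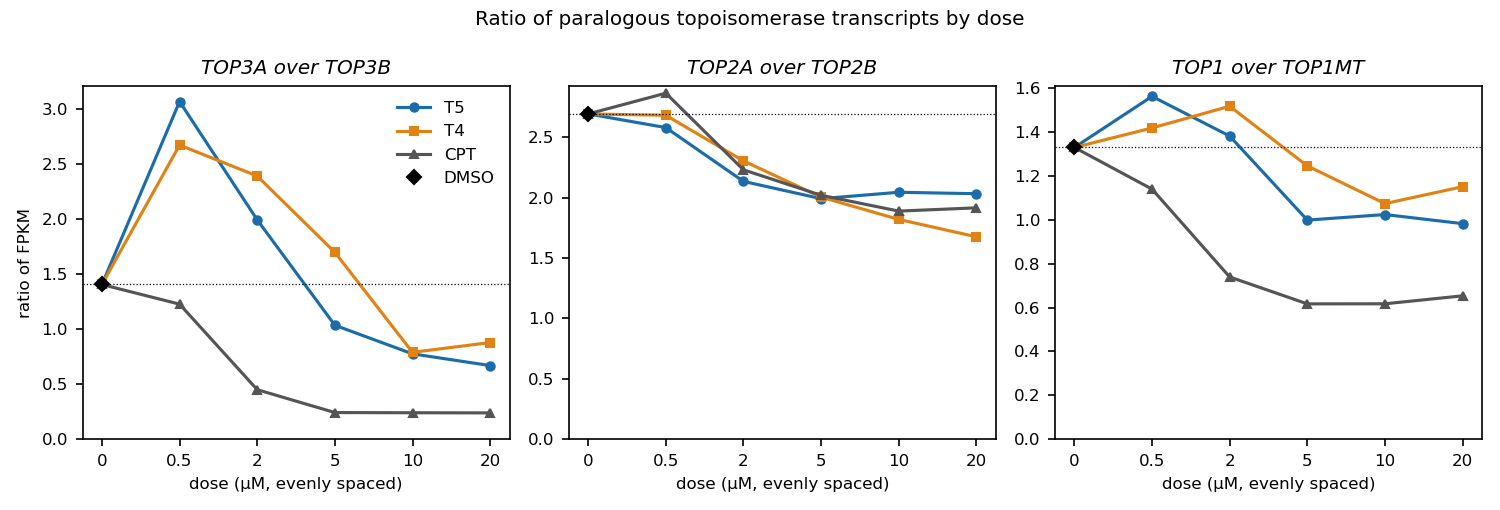
Ratio of FPKM (y axis, from 0) within each library for TOP3A over TOP3B, TOP2A over TOP2B and TOP1 over TOP1MT, by dose in µM (x axis, evenly spaced steps, with DMSO at 0) for T5, T4 and CPT; each point is 1 library. The TOP3A to TOP3B ratio is 3.07 at 0.5 µM T5 and 2.68 at 0.5 µM T4, above 1.41 in DMSO, and ends at 0.238 at 20 µM CPT.

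TDP1, the phosphodiesterase that removes TOP1 remnants from DNA ends, was already low at the lowest dose. FPKM was 2.38, 1.45, 1.42, 1.42 and 1.55 at rising doses of T5 and 2.99, 1.98, 1.56, 1.84 and 1.76 at rising doses of T4. With CPT it was 1.86, 0.895, 0.910, 0.955 and 1.06, against 4.93 in DMSO. All 15 treated libraries lay below DMSO, and CPT lay lowest at each dose. At 0.5 µM it stood at 48.4% of DMSO with T5, 60.6% with T4 and 37.7% with CPT. TDP1 fell with T5 (change -1.09 ± 0.35, adjusted p = 0.0391, limma) and with T4 (change -1.04 ± 0.28, adjusted p = 0.0237), both calls lost with either rescaling (adjusted p of 0.232 to 0.27), without 0.5 µM or 10 µM (0.0597 to 0.0943) and without DMSO (0.168 for T5 and 0.107 for T4), and that of T5 also without 5 µM (0.0711). Both calls were also lost without the filter on low values (0.0965 for T5 and 0.0632 for T4) and on a linear dose scale (0.345 and 0.265). The CPT change of -1.33 ± 0.44 was not called (adjusted p = 0.0506) and was called without 2 µM or 20 µM (adjusted p = 0.0322 and 0.0424).

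Over matched doses TDP1 was higher with T4 than with CPT by 0.50 ± 0.07 (adjusted p = 0.001, limma) and higher with T5 than with CPT by 0.31 ± 0.05 (adjusted p = 0.00294), in 5 of 5 doses each. Without dose as a block the T5 difference was not called (adjusted p = 0.119).

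TDP2, which removes TOP2 remnants, moved in opposite ways at low doses. FPKM was 10.6, 8.04, 5.48, 5.14 and 4.31 at rising doses of T5 and 11.01, 8.97, 6.84, 6.68 and 6.17 at rising doses of T4. With CPT it was 16.2, 15.1, 8.48, 7.71 and 6.74, against 13.0 in DMSO. At 0.5 and 2 µM CPT it was above DMSO, and every T5 and T4 library was below. It fell with all 3 compounds (changes of -1.45 ± 0.16 with T5, -1.01 ± 0.17 with T4 and -1.12 ± 0.29 with CPT, adjusted p = 0.00149, 0.00452 and 0.0246, limma). Median centring kept the T5 call and ended those of T4 (adjusted p = 0.0782) and CPT (0.0954), and that of CPT was also lost with quantile normalization (0.0733) and without 0.5, 5, 10 or 20 µM (0.0531 to 0.0874). Without the filter on low values the CPT call was lost too (0.0522). On a linear dose scale all 3 were lost (0.0773, 0.095 and 0.320 with T5, T4 and CPT). Over matched doses TDP2 was lower with T4 than with CPT (difference -0.36 ± 0.11, adjusted p = 0.0231, limma) and lower with T5 than with CPT (difference -0.60 ± 0.07, adjusted p = 0.00081), in 5 of 5 doses each. The T4 call was lost with either rescaling and without 0.5, 2 or 5 µM (adjusted p of 0.0567 to 0.0953), and without dose as a block both were lost (0.287 for T4 and 0.131 for T5).

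XRCC1, the repair scaffold, had FPKM values of 8.17 to 9.91 with T5, 8.76 to 11.3 with T4, 8.07 to 10.3 with CPT and 12.3 in DMSO. All 15 treated libraries lay below DMSO as deposited, but with median centring 3 of 5 doses of T5 and of T4 and 1 of 5 of CPT lay above it, and with quantile normalization 1 of 5 of T5 and 2 of 5 of T4. Its trends were -0.41 ± 0.19, -0.32 ± 0.19 and -0.40 ± 0.21 with T5, T4 and CPT, and none was called; median centring turned all 3 above 0, and quantile normalization those of T5 and T4. Its differences at matched doses were 0.12 for T4 minus CPT (95% interval -0.04 to 0.28) and -0.02 for T5 minus CPT (-0.16 to 0.12), and neither was called. PINLYP, which overlaps XRCC1 on the opposite strand, had at most 0.684.

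PARP1, the break sensor that modifies proteins with ADP-ribose, had FPKM values of 75.8 to 81.5 with T5, 71.2 to 81.5 with T4, 62.1 to 74.5 with CPT and 63.7 in DMSO. It was above DMSO in every library except 0.5 µM CPT, but with quantile normalization all 5 doses of CPT were below. The changes were 0.28 ± 0.10, 0.28 ± 0.10 and 0.28 ± 0.09 with T5, T4 and CPT, and none was called (adjusted p = 0.064, 0.065 and 0.0509, limma). With median centring all were called, at 0.95, 0.92 and 0.73 with T5, T4 and CPT, and with quantile normalization they were -0.04, 0.03 and -0.06. Processed pseudogene copies of PARP1 are annotated in GENCODE and were not analysed here. PARP1 was higher with T4 than with CPT by 0.13 ± 0.04 (adjusted p = 0.0321, limma) and higher with T5 than with CPT by 0.16 ± 0.04 (adjusted p = 0.016), in 5 of 5 doses each. The T4 call was lost without 0.5, 2, 5 or 10 µM (adjusted p of 0.0657 to 0.083), and both were lost without dose as a block (0.171 and 0.0852). Without the mean-variance trend of limma the T4 call was lost too (0.08675).

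**Figure D3:**
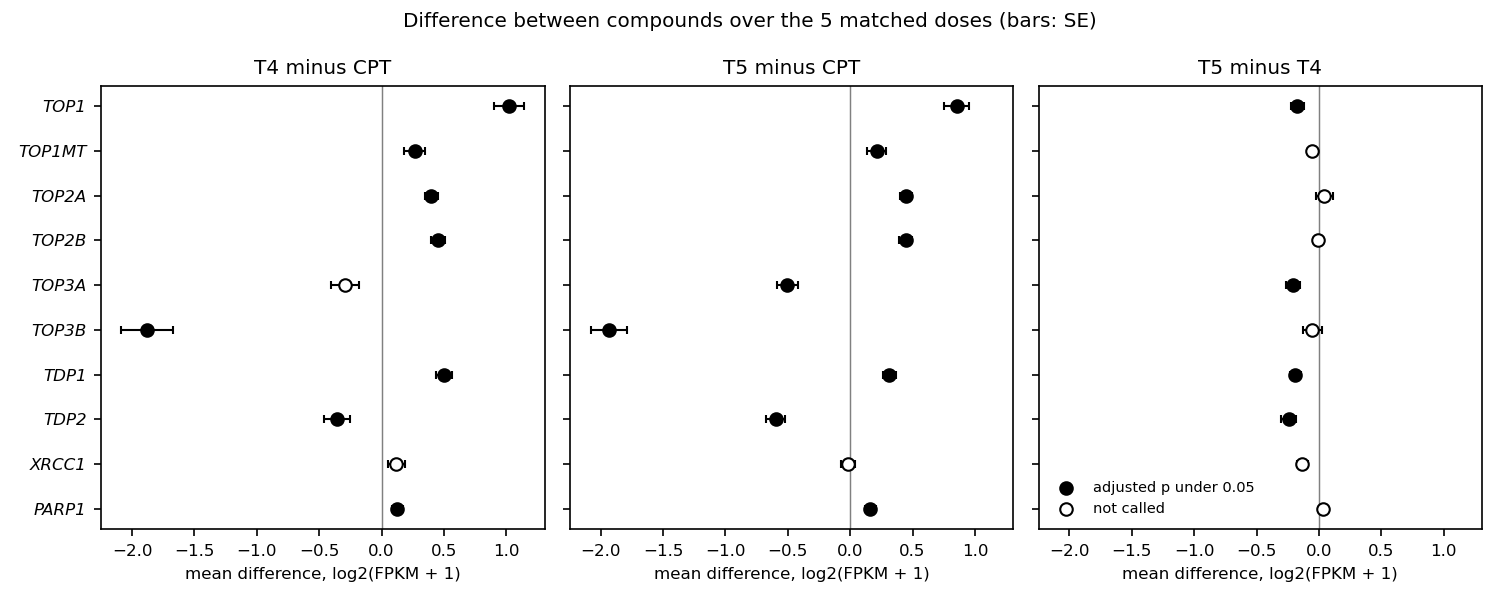
Mean difference in log2(FPKM + 1) over the 5 matched doses (x axis) for each of the 10 genes (y axis) in T4 minus CPT, T5 minus CPT and T5 minus T4; bars are standard errors, filled points have an adjusted p under 0.05. TOP1 lies at 1.03 and 0.85 and TOP3B at -1.88 and -1.93 in the comparisons with CPT, and all differences between T5 and T4 lie between -0.24 and 0.04.

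Counted together, 6 of the 10 genes were higher and 2 lower with T4 than with CPT at matched doses, against 28.3% and 36.9% of all tested genes. With T5 against CPT 6 were higher and 3 lower, against 25.0% and 37.6%. The median difference of the 10 was 0.20 for T4 minus CPT and 0.19 for T5 minus CPT, where that of all genes tested was -0.09 and -0.10. The calls of TOP1, TOP2A, TOP2B and TOP3B against CPT held under every alternative run for both compounds.

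Between T5 and T4, 4 of the 10 genes were called. With T5, TOP1 (-0.17 ± 0.05), TOP3A (-0.21 ± 0.05), TDP1 (-0.19 ± 0.05) and TDP2 (-0.24 ± 0.06) were lower than with T4 (adjusted p = 0.0368, 0.0259, 0.023 and 0.0256, limma), in 4 of 5 doses for TOP1 and 5 of 5 for the others. None was called higher, while at the same adjusted threshold 6.05% of all genes were called higher and 26.5% lower with T5. At an unadjusted p under 0.05 none of the 10 was higher either, and the share of all genes there was not counted. These 4 calls were lost with median centring, with quantile normalization, without the filter on low values and without dose as a block, and the count without single doses ran from 0 (without 2 µM) to 3. With median centring the single call was PARP1, higher with T5 than with T4 by 0.14 (adjusted p = 0.0229). For TOP3B the difference was -0.05, with a 95% interval of -0.24 to 0.14, for TOP2A 0.04 (-0.11 to 0.20) and for TOP2B -0.01 (-0.08 to 0.06). These were not called. The intervals reflect scatter between doses in the values as deposited and do not cover the choice of scaling. With median centring the TOP2B difference was 0.09, outside its interval.

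Whether dose slopes differed was tested on treated libraries, with an intercept for each compound. None of the 10 genes was called in any of the 3 pairs (limma), where 1.16% of all genes had a slope difference above 0 and 6.61% below 0 for T4 minus CPT, 2.54% and 6.19% for T5 minus CPT, and 0.0% of either for T5 minus T4. At an unadjusted p under 0.05, a limit at which all genes were not counted, TOP3B alone passed, for T4 minus CPT, with -1.06 ± 0.37 (adjusted p = 0.13). For T5 minus CPT its slope difference was -0.63, with a 95% interval of -1.30 to 0.03. TOP1 had -0.12 (-0.99 to 0.76) for T4 minus CPT and -0.34 (-1.24 to 0.57) for T5 minus CPT. Without 0.5 µM, TOP1 was called for T4 minus CPT, at -1.01 (adjusted p = 0.0471), and TOP1MT for T5 minus CPT, at -0.59 (adjusted p = 0.0328).

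The 6 topoisomerases together summed to an FPKM of 154.5 at 20 µM T5, 145.3 at 20 µM T4, 119.9 at 20 µM CPT and 177.4 in DMSO. TOP2A made up 46.7% of this sum with T5, 40.8% with T4, 40.0% with CPT and 44.8% in DMSO. The share of TOP1 was 14.3% with T5, 17.9% with T4, 11.9% with CPT and 17.5% in DMSO. The share of TOP3B was 0.895% with T5, 0.822% with T4, 7.31% with CPT and 3.29% in DMSO, and that of TOP3A was 0.599% with T5, 0.723% with T4, 1.74% with CPT and 4.63% in DMSO. These shares are of FPKM, which is per transcript length, and say nothing of enzyme amounts.

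Genes that act beside the 10 were taken from 5 lists. Of 12 measured partners in single-strand break repair, 2 rose and 6 fell with T5, 2 rose and 6 fell with T4, and 3 rose and 4 fell with CPT, against 18.2% and 34.5%, 14.5% and 32.4%, and 17.9% and 25.8% of all genes, with medians of -0.91, -0.82 and -0.44 with T5, T4 and CPT. ADPRHL2, a hydrolase that takes ADP-ribose off proteins, fell with T5 and T4 (changes of -2.04 ± 0.26 and -2.36 ± 0.39) and rose with CPT (change 0.60 ± 0.19; adjusted p = 0.00187, 0.00445 and 0.0446, limma). It was at 2.48 with 20 µM T5, 1.85 with 20 µM T4, 21.8 with 20 µM CPT and 12.95 in DMSO. PARP2, a second break sensor, changed by -2.24 ± 0.48, -1.90 ± 0.38 and -1.56 ± 0.15 with T5, T4 and CPT, and PARG, which degrades poly(ADP-ribose), by -1.49 ± 0.38, -1.39 ± 0.32 and -1.82 ± 0.48 with T5, T4 and CPT. APTX, which clears failed ligations, changed by -1.28 ± 0.39, -1.15 ± 0.35 and -1.45 ± 0.33 with T5, T4 and CPT. All falls named for this list were called. With median centring the CPT median of this list was 0.01. Centring called 3 rising and 3 falling with T5, 3 rising and 2 falling with T4, and 4 rising and 4 falling with CPT. Of all genes tested, more rose than fell with this centring for each compound.

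Of 12 genes that modify or degrade trapped TOP1, 1 rose and 6 fell with T5, 1 rose and 5 fell with T4, and 0 rose and 3 fell with CPT, with medians of -0.57, -0.58 and -0.21 that median centring turned to 0.10, 0.07 and 0.24. Of all genes 18.2% rose and 34.5% fell with T5, 14.5% and 32.4% with T4, and 17.9% and 25.8% with CPT, so the CPT share falling was near that of all genes. The centred medians over all genes tested were 0.38, 0.38 and 0.31 with T5, T4 and CPT. With median centring 4 rose and 4 fell with T5, 4 rose and 3 fell with T4, and 3 rose and 3 fell with CPT. Of the 10600 genes tested, centring called 4388 rising and 1992 falling with T5, 4293 and 1847 with T4, and 3572 and 1643 with CPT. With each compound the centred share of this list rising was below that of all genes, and the share falling above it. These differences in share were not tested. SPRTN, a protease of DNA-protein crosslinks, fell (changes of -1.64 ± 0.29, -1.55 ± 0.36 and -1.61 ± 0.33 with T5, T4 and CPT). RNF4, a ubiquitin ligase of SUMO-marked proteins, fell with all 3 compounds (-2.40 ± 0.26, -2.11 ± 0.35 and -1.18 ± 0.20 with T5, T4 and CPT), as did the ubiquitin ligase scaffold CUL3 (-1.99 ± 0.24, -1.80 ± 0.30 and -2.63 ± 0.44 with T5, T4 and CPT). PIAS4, a SUMO ligase, fell with T5 and T4 (-1.77 ± 0.24 and -2.02 ± 0.27), and its change with CPT was -0.29 ± 0.21 (adjusted p = 0.292, limma).

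The next list held 12 nucleases and cofactors that can cut a trapped enzyme away or process the fork. Of these, 6 fell with T5, 7 with T4 and 6 with CPT, against 34.5%, 32.4% and 25.8% of all genes. In this list 0 rose, against 18.2%, 14.5% and 17.9% of all genes. The list medians of -0.997, -1.18 and -1.05 stayed below 0 with both rescalings. With median centring 3 rose and 5 fell with T5, 2 rose and 4 fell with T4, and 0 rose and 5 fell with CPT. Among all genes tested, more rose than fell with this centring for each compound. EXO1, a 5' to 3' exonuclease, fell (-3.00 ± 0.25, -2.88 ± 0.31 and -2.68 ± 0.40 with T5, T4 and CPT), to an FPKM of 1.38 at 20 µM T5, 1.81 at 20 µM T4 and 2.59 at 20 µM CPT, against 14.75 in DMSO. EME1, a partner of the MUS81 nuclease, fell (-2.03 ± 0.24, -2.04 ± 0.22 and -1.16 ± 0.19 with T5, T4 and CPT). The break sensor subunit NBN fell (-1.201 ± 0.23, -1.14 ± 0.23 and -1.90 ± 0.36 with T5, T4 and CPT), as did the junction nuclease GEN1 (-1.68 ± 0.35, -1.31 ± 0.34 and -1.52 ± 0.28 with T5, T4 and CPT).

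Of 9 measured partners of TOP3A and TOP3B and related helicases, 1 rose and 6 fell with T5, 1 rose and 5 fell with T4, and 0 rose and 4 fell with CPT, against 18.2% and 34.5%, 14.5% and 32.4%, and 17.9% and 25.8% of all genes, with medians of -1.06, -0.79 and -1.08 that stayed below 0 with both rescalings. With median centring 1 rose and 3 fell with each compound, whereas more of all genes tested rose than fell. TDRD3, the partner of TOP3B, was on the list but is not among the 9 tested. BLM, the helicase that joins TOP3A in dissolving DNA junctions, fell (-2.49 ± 0.31, -2.43 ± 0.25 and -2.60 ± 0.49 with T5, T4 and CPT). RMI1, a subunit of the same complex, fell (-1.84 ± 0.49, -1.82 ± 0.41 and -2.38 ± 0.50 with T5, T4 and CPT). RMI2, another subunit, had changes of -1.36 ± 0.63, -1.29 ± 0.48 and -1.24 ± 0.42 with T5, T4 and CPT, none called (adjusted p = 0.113, 0.0628 and 0.0547, limma). FXR2, an RNA-binding relative of FMR1, fell with T5 and T4 (-1.35 ± 0.21 and -1.34 ± 0.24) and had -0.75 ± 0.25 with CPT (adjusted p = 0.052). Of 9 genes of R-loop and ribonucleotide removal, 3 fell with T5, 2 with T4 and 2 with CPT. These shares were at or below the 34.5%, 32.4% and 25.8% of all genes that fell. In this list 0 rose, against 18.2%, 14.5% and 17.9% of all genes. The T5 and T4 medians of -0.25 and -0.15 turned positive with both rescalings, and the CPT median of -0.39 with median centring. With that centring 4 rose and 1 fell with T5, 4 rose and 1 fell with T4, and 3 rose and 2 fell with CPT. The medians over all genes tested were also positive with both rescalings, and with median centring more of all genes rose than fell. THOC1, an mRNA export factor, fell (-1.04 ± 0.16, -0.87 ± 0.17 and -1.64 ± 0.29 with T5, T4 and CPT). The helicase AQR fell with T5 (-0.79 ± 0.21) and had uncalled changes of -0.51 ± 0.19 with T4 and -1.03 ± 0.51 with CPT (adjusted p = 0.0611 and 0.140, limma). RNASEH2A, a ribonuclease H2 subunit, had 0.41 ± 0.20, 0.25 ± 0.24 and 0.57 ± 0.26 with T5, T4 and CPT, none called.

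**Figure D4:**
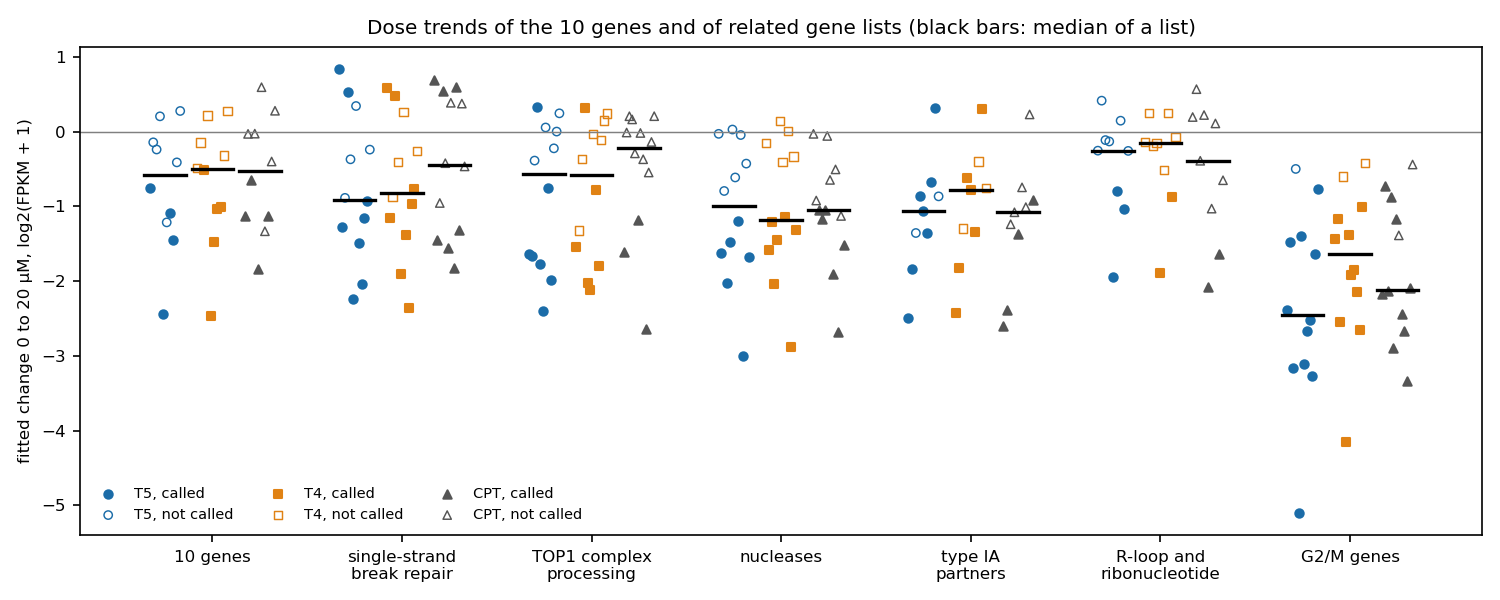
Fitted change in log2(FPKM + 1) between 0 and 20 µM (y axis) of each gene in the 10 genes and in 6 related lists (x axis) for T5, T4 and CPT; filled points have an adjusted p under 0.05 and black bars are list medians. The G2 and M genes have the lowest medians, -2.46, -1.64 and -2.11, and the 10 genes have medians between -0.59 and -0.50.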

How the data were processed

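RNA-seq of U2OS cells gave 16 libraries. The authors deposited a matrix of FPKM values with a column for each library. Per the submitters' processing notes, the tools included GSNAP and Cufflinks and the genome builds hg19 and GRCh37, without roles. Filters were not given in the sources used here. Left out were 2 inner header lines, 1 incomplete line and 220 repeated lines. FPKM rests on annotated transcript length, so a shifted 3' end could change it, which was not tested. Whether strand was used in counting is also not given.

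Relative depth came from the steps of values below an FPKM of 0.2, smoothed with a width of 0.02 log2 units; no counts were recovered. Tests used limma 3.58.1 in R 4.3.3 on log2(FPKM + 1), with a mean-variance trend and 2-sided p-values. A trend used DMSO and the 5 libraries of a compound against log2(1 + dose / 0.5 µM), scaled to 0 to 20 µM. A matched comparison used 10 libraries with dose as a block. Single-dose ratios to DMSO have no test. The scripts were tested on simulated data. Alternatives were another pseudocount (0.1), no filter, median centring, quantile normalization, no variance trend, linear dose, no block, and leaving out libraries.

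The genes and lists were chosen with earlier results of these data known. The text names all 10 genes, up to 4 genes of each list with the largest mean absolute change over the 3 trends, and the 5 genes most correlated with TOP1 and with TOP2A; pseudogenes were passed over, and some genes under this rule are not reported here. Overlaps and copies came from GENCODE, promoter sequences from RefSeq.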

Additional observations from a re-analysis of the deposited data

Results flagged for a closer look

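TOP3B and TOP2B lay on opposite sides of DMSO with CPT and with the other compounds at all 5 doses. For TOP3B, every T5 and T4 library was below DMSO and every CPT library above it, and the mean difference over matched doses was -1.88 for T4 minus CPT and -1.93 for T5 minus CPT, both called by limma. For TOP2B, every T5 and T4 library was above DMSO and every CPT library below it, and the mean difference was 0.45 for T4 minus CPT and 0.44 for T5 minus CPT, again called. How many of all genes tested lay on opposite sides in this way was not counted, so how unusual it is cannot be judged. Of all genes tested, 28.3% were called higher and 36.9% lower with T4 than with CPT, and 25.0% and 37.6% with T5. The side of DMSO rests on 1 control library. With median centring, 3 of 5 CPT doses of TOP2B were above DMSO, and with quantile normalization 1 of 5 T4 doses was below it, while the sides for TOP3B were the same as before. The differences between compounds do not use the DMSO library.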

How the results depend on the processing

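Counts of the 10 genes past the threshold were compared across settings. With T5, 4 were called, 2 without the filter on low values and 0 on a linear dose scale, and leaving out single libraries gave 2 to 5. With T4, 5 were called, 3 without the filter, 3 with quantile normalization and 0 on a linear dose scale, and single libraries gave 4 to 6. With CPT, 4 were called, 2 without the filter, 2 on treated libraries only and 0 on a linear dose scale, and single libraries gave 0 to 5, with 0 when 10 µM was left out. For T4 minus CPT at matched doses 8 were called and 5 to 8 without single doses. For T5 minus CPT 9 were called, 4 without dose as a block and 8 to 9 without single doses. For T5 minus T4 4 were called, 0 without the filter, 1 with median centring, 0 with quantile normalization, 0 without the block and 0 to 3 without single doses. Slope differences went from 0 to 1 for T4 minus CPT and for T5 minus CPT without single doses. Other settings gave total counts within 1.5 times. Median centring is among these for the 3 trends, yet it changed the split of calls. With T5, 0 rising and 4 falling became 4 rising and 2 falling. With T4, 0 and 5 became 3 and 1, and with CPT, 0 and 4 became 2 and 1. Of values called under either setting, 4 turned sign, all with median centring: TOP1MT at 0.50 with T4 and 0.53 with T5, and TOP2A at 0.13 with T4 and 0.43 with T5. Of values called under neither setting, 58 turned sign, 18 with median centring and 14 with quantile normalization. Over all genes, the linear scale called 23 rising and 545 falling with T5, 99 and 1328 with T4 and 0 and 0 with CPT, against 1929 and 3658, 1533 and 3438, and 1899 and 2739; centring called 4388 and 1992, 4293 and 1847, and 3572 and 1643. No paired analysis by replicate was possible because each condition has 1 library, and the matched comparisons pair libraries by dose alone. Total depth is unknown, which leaves low values such as those of TOP3A and TDP1 without a counting error.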
